A study of Homo sapiens with 6 samples.

Results

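The 10 genes described here code for enzymes of glycolysis, from hexokinase to pyruvate kinase. They are HK2, GPI, PFKL, PFKP, ALDOA, TPI1, PGK1, PGAM1, ENO1 and PKM, taken by symbol from a table of 54261 gene symbols, and all 10 were found and tested. RNA was sequenced from 6 libraries of the human lung cancer cells PC9/GR, in a series on resistance to EGFR inhibitors and glutamine metabolism. Of the libraries, 3 came from cells given an siRNA against the long non-coding RNA MYLK-AS1 (si-MYLK-AS1) and 3 from cells given a control siRNA (si-NC). Both groups are the same cell line, given as a single line with no second clone, and the labels state no dose, harvest time or inhibitor treatment for either group. The labels do not say that repeats were separate cultures, so p-values measure only the spread between these libraries, which may be technical.

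Glycolysis splits glucose into pyruvate in the cytosol. A preparatory phase spends ATP to turn glucose into triose phosphates, and a payoff phase regains ATP and NADH as the trioses become pyruvate. Tumour cells often run the pathway at a high rate even with oxygen present, and many of its genes are known targets of the hypoxia factor HIF1A and of MYC.

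Total counts ran from 7551303 to 11055408 reads in the si-MYLK-AS1 libraries and from 8867818 to 10978513 in the si-NC libraries. Log2 levels of all tested genes correlated between libraries at 0.977 to 0.985 within si-MYLK-AS1 and 0.984 to 0.990 within si-NC, and repeat 3 of si-MYLK-AS1 had the lowest correlations of its group. MYLK-AS1 had 0, 5 and 4 reads in si-MYLK-AS1 repeats 1 to 3, against 20, 16 and 19 reads in si-NC repeats 1 to 3 (-2.43 on the log2 scale, SE 0.60, adjusted p = 0.00326 by edgeR's quasi-likelihood test), and the change was -1.74 (adjusted p = 0.0159) without si-MYLK-AS1 repeat 1. Whether counting used strand is not known, so reads of MYLK, which lies opposite, may be among them. The 0 reads of repeat 1 allow a level of up to 0.274 CPM (reads scaled to a common library size, TMM-adjusted), taken as 3 counts, and this limit covers counting error only. Of 14 lung and epithelial markers, 9 were tested, SFTPB, SFTPA1 and SFTA3 had no read, and the lung regulator NKX2-1 had between 0 and 10 reads in any library. The summed level of those markers, carried by keratins, was 7640 to 8240 CPM in si-MYLK-AS1, against 11900 to 13900 CPM in si-NC, and the part of this difference in the results was not tested. Of the 9 tested, 6 fell, among them CDH1 (-1.11, SE 0.16, adjusted p = 0.000111), and 1 rose, KRT19 (0.37, SE 0.10, adjusted p = 0.00816). Of all tested genes, 20.7% fell and 21.3% rose. Of 8 blood cell markers, PTPRC, CD3E and MS4A1 were among those with no read, and the summed level was 19.2 to 24.0 CPM in si-MYLK-AS1, against 30.5 to 42.9 CPM in si-NC. CD14, the only blood marker tested, carried nearly all of it and fell (-0.71, SE 0.15, adjusted p = 0.000909). Of 8 fibroblast and endothelial markers, COL1A2 had no read, and the sum was 28.0 to 34.9 CPM in si-MYLK-AS1, against 21.9 to 28.6 CPM in si-NC. COL1A1 carried most of it and did not pass (0.13, SE 0.14, adjusted p = 0.493), and LUM rose, with 28, 25 and 38 reads in si-MYLK-AS1, against 2, 7 and 6 reads in si-NC (2.75 on the log2 scale, SE 0.46, adjusted p = 0.000128). The part of these markers in the results was not tested.

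Most of the 10 glycolytic enzymes were higher in si-MYLK-AS1, and none was called lower. PGAM1, ALDOA, PGK1, PKM, PFKP and ENO1 rose, by 2.11, 1.64, 1.53, 1.28, 1.23 and 1.20 fold in that order. HK2, GPI, PFKL and TPI1 did not pass the threshold, an adjusted p of 0.05 over all 15391 tested genes. The 6 of 10 that rose stand beside 21.3% of all tested genes that rose, and the 0 that fell beside 20.7% that fell, with 42% called in either direction. The same 6 genes had CPM values above those of every si-NC library, as did 26.1% of all tested genes, and 52.2% of all tested genes had groups apart in either direction. The median log2 fold change of the 10 was 0.28, and that of all tested genes was -0.000504. Libraries are of bulk RNA, so a higher level per cell and more cells with a high level cannot be told apart.

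**Figure D1:**
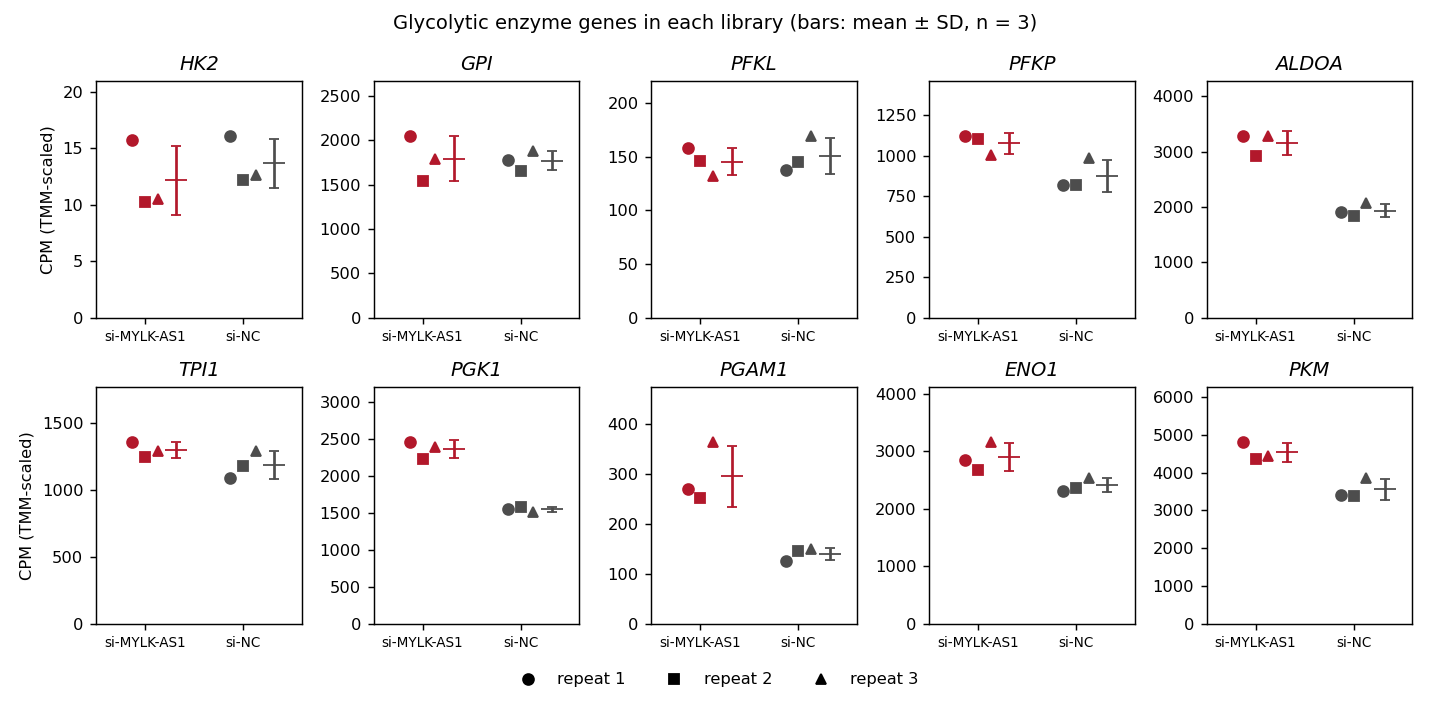
Level of each of the 10 genes in CPM (TMM-adjusted) in every library, with si-MYLK-AS1 in red left of si-NC in grey, and the mean ± SD beside the points. Points of the groups are apart for PFKP, ALDOA, PGK1, PGAM1, ENO1 and PKM, and they overlap for HK2, GPI, PFKL and TPI1.

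By position in the pathway, 2 of 6 preparatory members rose and 4 of 4 payoff members did. The median log2 fold change was 0.07 in the preparatory phase (range -0.15 to 0.71) and 0.48 in the payoff phase (range 0.27 to 1.07). The difference between the phases was not tested. Together the 10 genes took 1.82%, 1.65% and 1.73% of all reads in si-MYLK-AS1 repeats 1 to 3, against 1.33%, 1.33% and 1.44% in si-NC repeats 1 to 3. The means were 1.74% ± 0.0860 in si-MYLK-AS1 and 1.37% ± 0.0641 in si-NC (SD, n = 3 each), and the groups did not overlap.

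Levels of different genes are compared here as CPM per kilobase of annotated exon. In si-MYLK-AS1 the order from the top was PKM (1369 ± 74.3), ALDOA (1314 ± 88.8), ENO1 (1205 ± 103), TPI1 (596 ± 26.2), PGK1 (475 ± 24.2), GPI (401 ± 57.2), PFKP (284 ± 17.3), PGAM1 (161 ± 33.3), PFKL (49.1 ± 4.37) and HK2 (2.05 ± 0.517; mean ± SD, n = 3). The SD intervals of PKM, ALDOA and ENO1 met there, as did those of PGK1 and GPI. In si-NC the order was PKM (1073 ± 82.2), ENO1 (1001 ± 49.9), ALDOA (803 ± 49.3), TPI1 (544 ± 47.9), GPI (396 ± 24.8), PGK1 (311 ± 7.16), PFKP (231 ± 25.7), PGAM1 (76.6 ± 6.92), PFKL (51.0 ± 5.69) and HK2 (2.30 ± 0.361), where the intervals of PKM and ENO1 met and those of ENO1 and ALDOA, and of GPI and PGK1, did not. Thus ALDOA stood above ENO1 in si-MYLK-AS1 and below it in si-NC, and PGK1 stood above GPI in si-MYLK-AS1 and below it in si-NC. GAPDH, the first enzyme of the payoff phase and not among the 10, was higher than any of them, at 4558 CPM per kilobase in si-MYLK-AS1 and 3497 in si-NC.

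Glucose is first trapped as glucose 6-phosphate. HK2, the inducible hexokinase often raised in tumours, lies at chr2:74833981-74893359 on the plus strand of GRCh38 (GENCODE 29, as for all gene positions here). It had only 172, 98 and 77 reads in si-MYLK-AS1 repeats 1 to 3, against 145, 127 and 138 reads in si-NC repeats 1 to 3. Its level was 12.2 ± 3.07 CPM in si-MYLK-AS1 and 13.7 ± 2.14 CPM in si-NC (SD, 3 libraries each), so it differed by -0.15 on the log2 scale (SE 0.19, adjusted p = 0.562). The groups overlapped, and HK2 was the lowest and most variable of the 10, with a coefficient of variation of 25.2% in si-MYLK-AS1 and 15.7% in si-NC.

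HK1, the hexokinase that most tissues use, was listed at 0 reads in all 6 libraries. CDC42, GNAS and RPS29, which nearly every cell expresses, also had between 0 and 8 reads in any library. A listing at 0 in this table is therefore not read as absence, and HK2's share of hexokinase could not be given. Whether the same limit touches HK2, or the levels and shares of other genes given here, was not tested. CDC42, GNAS and RPS29 were chosen after their values were seen. HKDC1, a further hexokinase, and ADPGK, which phosphorylates glucose with ADP, both rose. HKDC1 had 118 ± 4.75 CPM in si-MYLK-AS1 and 93.8 ± 1.95 CPM in si-NC (log2 fold change 0.33, SE 0.09, adjusted p = 0.00727). ADPGK had 158 ± 2.97 CPM in si-MYLK-AS1 and 87.5 ± 3.90 CPM in si-NC (0.85, SE 0.09, adjusted p = 1.17e-06).

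GPI turns glucose 6-phosphate into fructose 6-phosphate and lies at chr19:34359480-34402413 on the plus strand. It had 2053, 1541 and 1785 CPM in si-MYLK-AS1 repeats 1 to 3, against 1774, 1659 and 1881 CPM in si-NC repeats 1 to 3. Repeats 1 and 2 of si-MYLK-AS1 held the highest and the lowest of the 6 values. The log2 fold change was 0.02 (SE 0.10, adjusted p = 0.909).

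Phosphofructokinase commits the sugar to glycolysis, and its subunits come from PFKL (liver type), PFKP (platelet type) and PFKM (muscle type). PFKP, at chr10:3066333-3137712 on the plus strand, had 1123, 1100 and 1000 CPM in si-MYLK-AS1 repeats 1 to 3, against 816, 818 and 985 CPM in si-NC repeats 1 to 3. The groups lay next to each other, with repeat 3 of each group closest to the other group. PFKP rose by 0.30 on the log2 scale (SE 0.10, adjusted p = 0.0186). This call was lost when si-MYLK-AS1 repeat 1 (adjusted p = 0.0656) or repeat 2 (0.0651) was left out, and without si-NC repeat 1 (0.0964) or repeat 2 (0.105). PFKL, at chr21:44300051-44327376 on the plus strand, had 158, 146 and 132 CPM in si-MYLK-AS1, against 137, 145 and 170 CPM in si-NC, and the groups overlapped fully. Its log2 fold change was -0.05 (SE 0.10, adjusted p = 0.720). PFKM, the least abundant of the family, rose to 16.4 ± 1.15 CPM in si-MYLK-AS1, against 10.9 ± 1.63 CPM in si-NC (0.59, SE 0.17, adjusted p = 0.00945).

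Per kilobase, PFKP supplied most phosphofructokinase reads in both groups. Its share was 83.9%, 84.7% and 84.7% in si-MYLK-AS1 repeats 1 to 3, against 81.5%, 80.8% and 81.5% in si-NC repeats 1 to 3. PFKL's share was 14.6% ± 0.431 in si-MYLK-AS1 and 17.9% ± 0.394 in si-NC, and PFKM's was 1.02% ± 0.0431 in si-MYLK-AS1 and 0.821% ± 0.198 in si-NC (SD, n = 3 each). The groups did not overlap for any of these shares. Each two-sided exact permutation test gave p = 0.1, the smallest that 3 against 3 libraries can give, and 0.125 after adjustment over the 5 shares tested. No share can pass the threshold with this test. Without si-NC repeat 3 the difference in PFKM's share was 0.0853 percentage points, against 0.199 with all libraries.

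Aldolase cleaves the 6-carbon sugar into trioses. ALDOA, its widely expressed form, lies at chr16:30064164-30070457 on the plus strand. It had 3280, 2916 and 3291 CPM in si-MYLK-AS1 repeats 1 to 3, against 1902, 1834 and 2065 CPM in si-NC repeats 1 to 3. The lowest si-MYLK-AS1 library was far above the highest si-NC library. ALDOA rose by 0.71 on the log2 scale (SE 0.09, adjusted p = 9.78e-06). ALDOC, the brain form, did not pass, at 29.5 ± 6.71 CPM in si-MYLK-AS1 and 30.7 ± 1.93 CPM in si-NC (-0.05, SE 0.15, adjusted p = 0.811). ALDOA's share of the pair per kilobase was 98.9% ± 0.211 in si-MYLK-AS1 and 98.2% ± 0.0482 in si-NC (SD, n = 3 each; exact permutation p = 0.1, adjusted 0.125).

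TPI1 interconverts the trioses and lies at chr12:6867119-6870948 on the plus strand. It had 1357, 1245 and 1285 CPM in si-MYLK-AS1 repeats 1 to 3, against 1084, 1174 and 1291 CPM in si-NC repeats 1 to 3. The groups overlapped only through si-NC repeat 3. The log2 fold change was 0.13 (SE 0.09, adjusted p = 0.268). Many reads of this gene may be listed elsewhere, since its pseudogene TPI1P1 held 26.1%, 26.2% and 27.5% of the reads of the pair in si-MYLK-AS1, against 26.8%, 26.7% and 27.6% in si-NC. With the reads of all 4 TPI1 pseudogenes added, the log2 fold change was 0.12 (adjusted p = 0.319).

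GAPDH opens the payoff phase by oxidising glyceraldehyde 3-phosphate. It rose to 10136 ± 749 CPM in si-MYLK-AS1, against 7778 ± 654 CPM in si-NC (0.38 on the log2 scale, SE 0.10, adjusted p = 0.00416; SD over 3 libraries). PGK1, which makes the first ATP of this phase, lies at chrX:77910739-78129296 on the plus strand. PGK1 had 2467, 2233 and 2400 CPM in si-MYLK-AS1 repeats 1 to 3, against 1550, 1588 and 1516 CPM in si-NC repeats 1 to 3. It was the steadiest of the 10 in si-NC, with a coefficient of variation of 2.30%, and the groups were wide apart. The log2 fold change was 0.61 (SE 0.09, adjusted p = 2.67e-05).

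PGAM1 moves the phosphate from carbon 3 to carbon 2 of glycerate. It had the greatest change of the 10 and lies at chr10:97426160-97433441 on the plus strand. PGAM1 had 270, 252 and 365 CPM in si-MYLK-AS1 repeats 1 to 3, against 126, 145 and 150 CPM in si-NC repeats 1 to 3. Repeat 3 of si-MYLK-AS1 was well above repeats 1 and 2, and all 3 were above every si-NC library. The log2 fold change was 1.07 (SE 0.12, adjusted p = 4.43e-06), and 0.90 to 1.19 over the 16 other settings tried.

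PGAM4, a near-identical copy of PGAM1 without introns, rose as well. It had 1289, 1181 and 734 reads in si-MYLK-AS1 repeats 1 to 3, against 325, 501 and 346 reads in si-NC repeats 1 to 3 (1.56, SE 0.14, adjusted p = 2.08e-07). PGAM4 took 30.4%, 33.0% and 21.5% of the reads of the pair in si-MYLK-AS1, against 22.3%, 24.99% and 17.5% in si-NC. Repeat 3 had the lowest of these shares within each group. Reads of the pair cannot be told apart with certainty, and with both genes summed the log2 fold change was 1.19 (adjusted p = 8.85e-08), a setting added after the data were seen.

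ENO1, the main enolase, makes phosphoenolpyruvate and lies at chr1:8861000-8879250 on the minus strand. It had 2848, 2679 and 3165 CPM in si-MYLK-AS1 repeats 1 to 3, against 2312, 2367 and 2541 CPM in si-NC repeats 1 to 3. The gap between the groups was narrow, between si-MYLK-AS1 repeat 2 and si-NC repeat 3. ENO1 rose by 0.27 on the log2 scale (SE 0.09, adjusted p = 0.0274), the smallest of the 6 rises. The call was lost without si-MYLK-AS1 repeat 3 (adjusted p = 0.0697), si-NC repeat 1 (0.117) or si-NC repeat 2 (0.102).

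The minor enolases went in opposite directions. ENO2, the neuronal form, rose to 213 ± 20.9 CPM in si-MYLK-AS1, against 147 ± 15.7 CPM in si-NC (0.53, SE 0.10, adjusted p = 0.000443). ENO3, the muscle form, fell to 30.8 ± 5.11 CPM in si-MYLK-AS1, against 46.2 ± 6.07 CPM in si-NC (-0.58, SE 0.14, adjusted p = 0.00291). ENO1 kept 94.7% ± 0.679 of ENO1 and ENO2 reads per kilobase in si-MYLK-AS1 and 95.6% ± 0.387 in si-NC (SD, n = 3 each; exact permutation p = 0.2, adjusted 0.2). The difference was -0.88 percentage points, and -0.56 without si-MYLK-AS1 repeat 1.

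PKM, the pyruvate kinase outside liver and red cells, makes the last ATP and pyruvate and lies at chr15:72199029-72231822 on the minus strand. It had 4814, 4354 and 4431 CPM in si-MYLK-AS1 repeats 1 to 3, against 3405, 3386 and 3867 CPM in si-NC repeats 1 to 3. All si-MYLK-AS1 libraries were above all si-NC libraries, and PKM rose by 0.35 on the log2 scale (SE 0.09, adjusted p = 0.00536). The splice forms PKM1 and PKM2 are not separated in a table of whole genes. PKLR, the liver and red cell gene, had between 0 and 3 reads in any library.

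**Figure D2:**
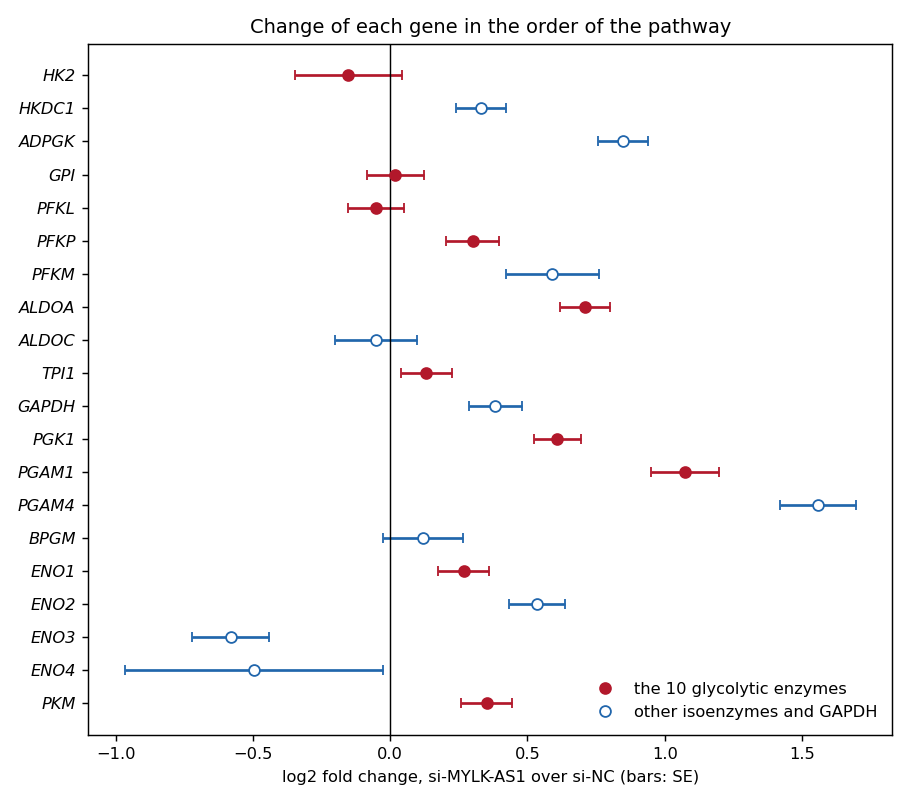
Log2 fold change of si-MYLK-AS1 over si-NC (x axis, bars show the SE) for the 10 glycolytic enzymes (filled red) and for the other tested isoenzymes and GAPDH (open blue), from top to bottom in pathway order. PGAM1 at 1.07 is the highest of the 10 and HK2 at -0.15 the lowest, and ENO3 at -0.58 is the only gene of the other set that passed the threshold downward.

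Pseudogenes of the members, PGAM4 and TPI1 apart, held at most 15.4% of the reads of a member and its copies, and none is listed for GPI, PFKL or PFKP. Over the 6 libraries they held 7.53% to 15.4% of the reads for HK2 and its copy, 4.34% to 5.38% for PGK1, 1.76% to 4.80% for PGAM1, 2.73% to 3.86% for ENO1, 1.21% to 1.76% for PKM and 0.627% to 1.05% for ALDOA. PGK1P1 (0.55, SE 0.11, adjusted p = 0.000471) and PGK1P2 (0.42, SE 0.12, adjusted p = 0.00861) rose, as PGK1 did. ENO1P1 (-0.02, SE 0.10, adjusted p = 0.870) and PKMP1 (0.02, SE 0.13, adjusted p = 0.916) did not pass. With pseudogene reads added to each member, 6 of 10 were again called higher and 0 lower.

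**Figure D3:**
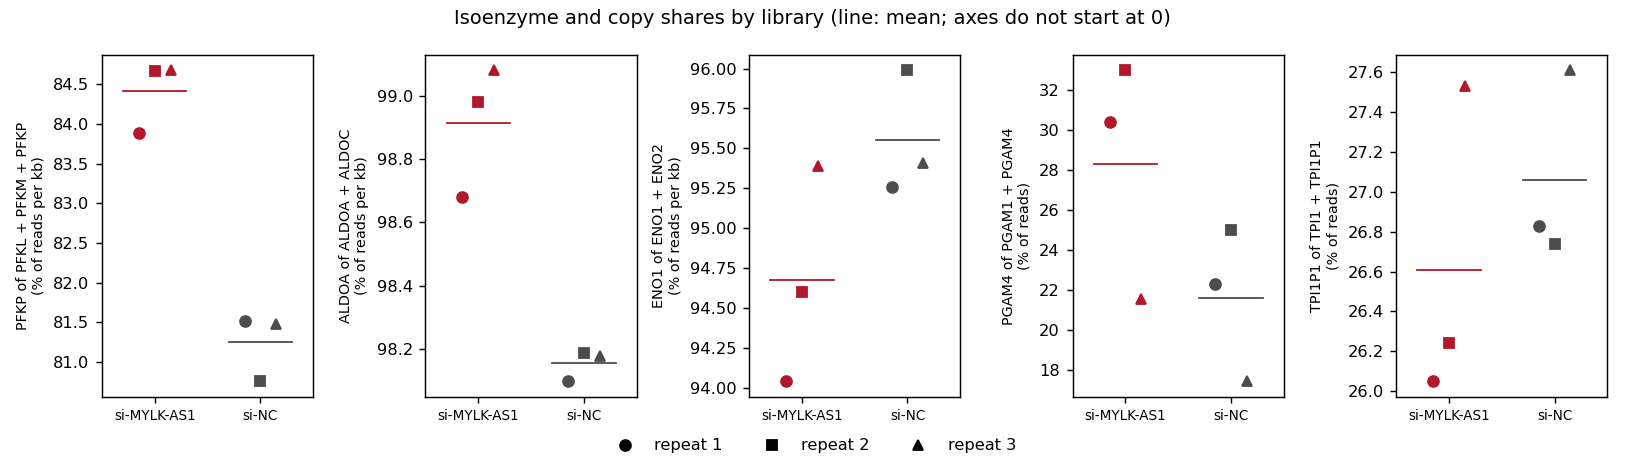
Shares in each library, with si-MYLK-AS1 in red left of si-NC in grey and a line at each mean, for PFKP among phosphofructokinase genes, ALDOA among ALDOA and ALDOC, and ENO1 among ENO1 and ENO2 (percent of reads per kilobase), and for PGAM4 and TPI1P1 beside their parent genes (percent of reads). The groups are apart for PFKP (84.4% against 81.3%) and ALDOA, and they overlap for ENO1, PGAM4 and TPI1P1, and no axis starts at 0.

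Promoters were compared because 6 of the 10 members rose, with windows of 250 bases before to 50 bases after each start in RefSeq (GRCh38.p14). All 10 genes matched, with 17 windows in all, since HK2, PFKP, ALDOA and TPI1 have several starts, and the first 2 ALDOA windows overlap. The searched words were ACGTG, a form of the core of hypoxia response elements, and CACGTG, the E-box bound by MYC and MLXIPL. CACGTG contains ACGTG, and other forms of the core were not searched. Both strands were read. ACGTG was found in 9 of 17 windows and in 6 of 10 members, against 21.4% of all 35116 windows and 24.9% of all 27305 genes. It was present in 3 of the 6 members that rose (PFKP, ALDOA and PGK1) and in 3 of the 4 that did not pass (HK2, GPI and TPI1). CACGTG was found in 2 of 17 windows and 2 of 10 members, HK2 and ALDOA, against 7.26% of all windows and 8.77% of all genes. A gene with more windows has more places for a match, so shares of genes are not compared on equal terms. A match is a description of the letters and not a site in use.

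The windows with CACGTG or with at least 3 ACGTG matches are printed, because they show the words in a gene that rose (ALDOA, PGK1) and in a gene that did not pass (HK2). Capitals mark ACGTG on either strand, and CACGTG where it is longer. They run 5′ to 3′ on the strand of the gene, from chr2:74834920-74835219 for HK2, chr16:30064247-30064546 for ALDOA and chrX:78103998-78104297 for PGK1, all on the plus strand.
HK2: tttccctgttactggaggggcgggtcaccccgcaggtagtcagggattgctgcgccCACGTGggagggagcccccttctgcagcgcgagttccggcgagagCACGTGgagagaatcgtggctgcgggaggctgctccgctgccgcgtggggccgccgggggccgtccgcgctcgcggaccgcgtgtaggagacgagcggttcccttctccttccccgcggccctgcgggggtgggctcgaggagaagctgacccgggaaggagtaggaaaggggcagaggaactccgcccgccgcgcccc
ALDOA: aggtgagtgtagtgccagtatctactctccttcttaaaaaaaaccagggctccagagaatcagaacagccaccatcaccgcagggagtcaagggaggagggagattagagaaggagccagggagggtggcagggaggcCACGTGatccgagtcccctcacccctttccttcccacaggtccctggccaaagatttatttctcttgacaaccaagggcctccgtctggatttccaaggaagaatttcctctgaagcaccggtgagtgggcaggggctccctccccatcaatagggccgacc
PGK1: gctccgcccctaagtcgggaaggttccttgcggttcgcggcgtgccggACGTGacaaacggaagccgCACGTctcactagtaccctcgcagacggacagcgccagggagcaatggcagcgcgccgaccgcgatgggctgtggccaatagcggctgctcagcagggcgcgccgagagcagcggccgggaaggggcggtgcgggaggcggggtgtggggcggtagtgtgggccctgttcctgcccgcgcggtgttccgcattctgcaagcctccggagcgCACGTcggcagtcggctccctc
HK2 shows CACGTG in 2 places, ALDOA in 1 place, and PGK1 shows ACGTG or its reverse complement in 3 places with no CACGTG.

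Around the 10 genes, the other isoenzymes and GAPDH gave 6 higher and 1 lower of 10 tested, with a median log2 fold change of 0.36. These and the lists that follow are to be read beside the 21.3% of all tested genes that rose and the 20.7% that fell. PGAM4 is among the 6 that rose, and its reads cannot be told apart from those of the member PGAM1 with certainty. BPGM, which diverts 1,3-bisphosphoglycerate, and ENO4 did not pass (0.12, SE 0.15, adjusted p = 0.550 for BPGM, and -0.50, SE 0.47, adjusted p = 0.423 for ENO4). GAPDHS had no read, and HK3 and PGAM2 had at most 1 read in any library.

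Among 11 tested regulators of glycolytic flux, 3 rose and 3 fell (median 0.17). MYC (0.59, SE 0.09, adjusted p = 6.73e-05) and MLXIP, which codes for the glucose sensor MondoA (0.48, SE 0.10, adjusted p = 0.00114), rose. MLXIPL, which codes for the carbohydrate response factor ChREBP, fell to 9.40 ± 2.09 CPM in si-MYLK-AS1, against 22.6 ± 2.82 CPM in si-NC (-1.25, SE 0.18, adjusted p = 2.68e-05). PFKFB2, which makes and removes the phosphofructokinase activator fructose 2,6-bisphosphate, fell (-0.85, SE 0.16, adjusted p = 0.000433). PFKFB3 and TIGAR had at most 7 and 14 reads in any library and were not tested.

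Of 13 tested genes of glucose entry and lactate handling, 4 rose and 3 fell (median 0.24). The lactate dehydrogenase LDHA (0.97, SE 0.09, adjusted p = 2.06e-07), the lactate carrier SLC16A1 (0.74, SE 0.10, adjusted p = 2.33e-05) and the glucose carrier SLC2A3 (0.65, SE 0.11, adjusted p = 0.000199) rose, and the glucose carrier SLC2A6 fell (-0.78, SE 0.16, adjusted p = 0.000994).

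Of 15 tested genes for pyruvate dehydrogenase, its regulators and pyruvate entry into mitochondria, 3 rose and 6 fell (median -0.29). PDK4, a kinase that switches pyruvate dehydrogenase off, rose to 226 ± 39.2 CPM in si-MYLK-AS1, against 99.8 ± 13.8 CPM in si-NC (1.18, SE 0.13, adjusted p = 1.9e-06). PDHA1, a catalytic subunit of that complex (-0.51, SE 0.09, adjusted p = 0.000185), pyruvate carboxylase PC (-0.76, SE 0.13, adjusted p = 0.000175) and the kinase PDK2 (-0.68, SE 0.12, adjusted p = 0.000214) fell.

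In the pentose phosphate pathway, which leaves glycolysis at glucose 6-phosphate to make NADPH and ribose, 2 rose and 4 fell of 8 tested (median -0.19). PGD fell to 1358 ± 67.4 CPM in si-MYLK-AS1, against 2109 ± 214 CPM in si-NC (-0.64, SE 0.09, adjusted p = 4.15e-05). TKT, whose enzyme returns sugars to glycolysis, fell (-0.57, SE 0.10, adjusted p = 0.000228). H6PD, which acts in the endoplasmic reticulum, fell too (-0.39, SE 0.11, adjusted p = 0.0104), a call lost without si-MYLK-AS1 repeat 3 (0.0580) or si-NC repeat 2 (0.0743). Of 3 tested genes of gluconeogenesis, which runs the pathway backwards, PCK2 (-0.70, SE 0.11, adjusted p = 9.45e-05) and SLC37A4 (-0.48, SE 0.12, adjusted p = 0.00319) fell and G6PC3 did not pass (-0.19, SE 0.09, adjusted p = 0.110). No difference between these lists and the 10 enzymes was tested.

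**Figure D4:**
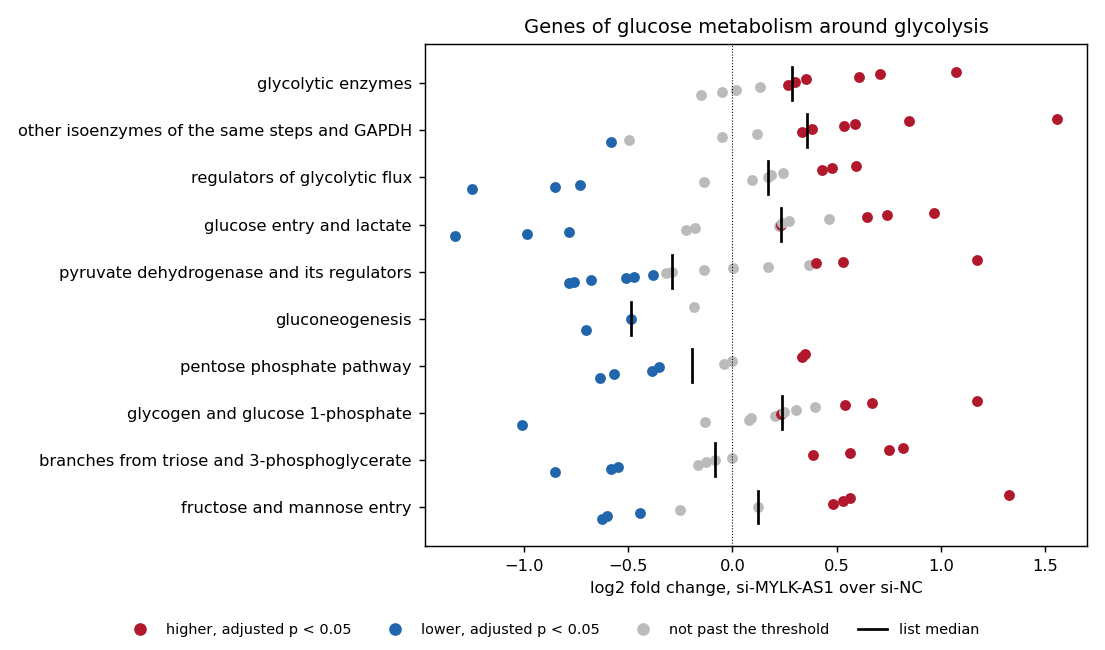
Log2 fold change of si-MYLK-AS1 over si-NC (x axis) for every tested gene of the 10 glycolytic enzymes (top row) and of 9 lists of related genes, with a black line at each list's median. Red points passed the threshold upward and blue points downward, and the median runs from 0.36 for the other isoenzymes and GAPDH to -0.48 for gluconeogenesis.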

How the data were processed

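Trizol RNA of 6 PC9/GR samples was made into Ion Proton libraries, per the labels. A deposited table gives raw read counts by gene symbol. GRCh38 is the build named in the submitters' processing notes. The sources used here do not give the aligner, counter, annotation or strand setting. Groups and repeat numbers come from the sample titles.

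Counts of all 15391 genes that passed filterByExpr were fitted with edgeR 4.0.16 in R 4.3.3 (TMM factors, robust quasi-likelihood F test, two-sided, Benjamini-Hochberg adjustment over all tested genes, threshold 0.05). CPM use the TMM-adjusted library size. An approximate SE was taken as the absolute log2 fold change over the root of F. Common dispersion gave a biological coefficient of variation of 11.8%. The test was checked on simulated counts of 15391 genes, with the common dispersion for every gene. Far fewer genes were changed there than the 42% called in the data, so the recovery rates need not hold for the data. The test recovered 17 of 64 genes with a log2 change of 0.5, 55 of 66 with 1 and 63 of 63 with 2. Of 145 calls, 10 were false. Some genes with a change of 0.5 or 1 were missed, so not passing does not show that a gene was unchanged. How large a missed change can be differs by gene with its SE. Exon lengths are merged exons of the GENCODE 29 basic set, matched by symbol. Shares were compared with exact permutation tests (scipy 1.17.1). Of 158 list symbols 157 were in the table.

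Alternatives were RLE, upper quartile or no factors, no filter, at least 5 CPM in 3 libraries, DESeq2 1.42.0, limma-voom (limma 3.58.1), single libraries left out, a block for the repeat number, an adjusted p of 0.01, and adding reads of pseudogenes or of PGAM4. The members and lists were chosen with earlier results of these data known. Named genes are the members, tested isoenzymes of the same steps, and up to 4 genes with the lowest p from each related list. Hexokinase shares (HK1 listed at 0) and protein comparisons were not analysed here. Some genes of the lists enter the counts and are not reported here by name.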

Additional observations from a re-analysis of the deposited data

How the results depend on the processing

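The counts of genes and members passing the threshold, the read share of the 10 enzymes and the 5 isoenzyme shares kept their direction under every alternative that was run, with counts within 1.5 times of those reported. The size of 2 share differences moved by over 1.5 times, PFKM's to 0.0853 percentage points without si-NC repeat 3 and ENO1's to -0.56 without si-MYLK-AS1 repeat 1. Leaving out 1 library at a time gave 4 to 6 members higher and 0 lower, with 2646 to 3176 of all genes higher and 2527 to 2971 lower. The count of 4 came without si-NC repeat 1 or 2, and an adjusted p of 0.01 also gave 4. ALDOA, PGK1, PGAM1 and PKM were called under all 16 settings, PFKP under 12 and ENO1 under 13. HK2, GPI, PFKL and TPI1 passed under none, with log2 fold changes of -0.39 to -0.02, -0.09 to 0.12, -0.12 to 0.04 and 0.07 to 0.20. Of 41 other named genes, 40 kept their side of the threshold throughout. No scaling moved the median of all genes by more than 0.03 (log2) from 0.

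No pairing of the libraries by repeat number was seen, but deviations from means of 3 libraries cannot exclude a shared preparation. Deviations from the group means of libraries with the same number correlated at -0.05, 0.07 and 0.05, and not every library correlated best with its own number. With the repeat number as a block, 3321 genes were higher and 3200 lower, and 6 members were higher and 0 lower. Precision is limited by 3 libraries a group, and for HK2 also by its low counts.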

Other observations

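A list for branches from triose phosphates and 3-phosphoglycerate had 11 tested genes. Not all of them use those compounds, as SLC25A13 and GOT1 handle aspartate and glutamate. Of the 11, 4 rose and 3 fell (median log2 fold change -0.09). This stands beside 21.3% of all tested genes that rose and 20.7% that fell, as do the lists below. PSAT1, which makes phosphoserine from a product of 3-phosphoglycerate, rose to 172 ± 20.2 CPM in si-MYLK-AS1, against 103 ± 11.2 CPM in si-NC (SD, n = 3 each; 0.75, SE 0.11, adjusted p = 3.08e-05 by edgeR, as below). The aspartate-glutamate carrier SLC25A13 rose (0.82, SE 0.13, adjusted p = 8.55e-05). The aspartate aminotransferase GOT1 (-0.85, SE 0.11, adjusted p = 1.29e-05) and GPD1L, a relative of glycerol 3-phosphate dehydrogenase (-0.55, SE 0.12, adjusted p = 0.00126), fell.

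Of 9 tested genes of fructose and mannose entry, 4 rose and 3 fell (median 0.12). PMM2, which makes mannose 1-phosphate for glycosylation, rose to 188 ± 16.2 CPM in si-MYLK-AS1, against 74.7 ± 3.04 CPM in si-NC (1.33, SE 0.10, adjusted p = 1.42e-08). Its paralog PMM1 fell (-0.63, SE 0.12, adjusted p = 0.000379). The aldose reductase AKR1B1 (0.53, SE 0.11, adjusted p = 0.000635) and GMPPA (0.48, SE 0.11, adjusted p = 0.0015) rose. Of 12 tested genes listed for glycogen and glucose 1-phosphate, 4 rose and 1 fell (median 0.24). PGM2L1, which makes glucose 1,6-bisphosphate, rose (1.17, SE 0.17, adjusted p = 3.83e-05), as did UGP2 (0.67, SE 0.17, adjusted p = 0.00475). PGM3, on this list though a gene of hexosamine synthesis, rose too (0.54, SE 0.10, adjusted p = 0.000339). The glycogen primer gene GYG2 fell (-1.01, SE 0.19, adjusted p = 0.000426).

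EGFR, the target of the inhibitors the series is about, had 17 to 38 reads in any library, and was named after its value was seen. EPCAM had 4 to 7 reads in si-MYLK-AS1, against 14 to 16 in si-NC. CDC42, GNAS and RPS29 were near 0 in the same libraries, and a link between these low counts was not tested.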
